A study of Mus musculus with 3 samples.

Results

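Endogenous retroviruses of class ERV3 are the oldest retroviral class of the mouse genome. The set described here was defined by name and not by any measured value, though with earlier results of these data known. It holds the ERV3 consensus sequences among the repeats counted, 185 of 1564 repeat sequences, in a table that also counts 48843 transcripts. A sequence belongs to it when its name carries the ERV3 tag or begins with MERVL, MT2, MT and a capital letter, or ORR1, and carries no ERV1 or ERV2 tag. The libraries were made from polyadenylated RNA of mouse embryonic stem cells (ESCs), 3 in all with 1 for each genotype: an ATRX knockout (ATRX-/-, clone KO1-44), a DAXX knockout (DAXX-/-, clone KO2-3) and a wildtype (clone WT26). All are isogenic male cells of C57BL/6x129sV background, grown with serum and leukaemia inhibitory factor (LIF) and passaged from irradiated feeder cells onto gelatin, and the knockouts were made by CRISPR targeting. Each genotype is thus 1 clone and 1 library, so a difference between genotypes cannot be told apart from one between clones, cultures or libraries.

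MERVL is a retrovirus of the ERVL group with gag and pol genes, whose long terminal repeat (LTR) works as a promoter when the embryonic genome is first activated at the 2-cell stage. In ESC cultures MERVL RNA comes largely from rare cells that enter a 2-cell-like state together with the Zscan4 genes. MaLR elements (the MT and ORR1 groups) are relatives without functional retroviral genes, and the youngest of them, MTA, is abundant in oocytes and cleavage embryos. The chromatin remodeller ATRX and the H3.3 chaperone DAXX form a complex that deposits this histone at repeats and heterochromatin. The comparisons ask how ERV3 RNA differs in ESCs labelled as lacking either partner.

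The libraries held 13988376 reads on transcripts in the ATRX knockout, 11224100 in the DAXX knockout and 13981915 in the wildtype, and levels are given as RPM, reads per 1000000 transcript reads. Of all reads, 77.01% to 78.9% were aligned. Repeats took 0.776% of aligned reads in the ATRX knockout, 0.991% in the DAXX knockout and 0.703% in the wildtype. Atrx had 1800 reads in the ATRX knockout, 3576 in the DAXX knockout and 4582 in the wildtype, a log2 fold of -1.35 for the ATRX knockout over wildtype. Daxx had 972, 623 and 1125 reads in the same order, a log2 fold of -0.54 for the DAXX knockout over wildtype. Each was lowest in the library that bears its name. The 7 listed pluripotency markers were all measured, and Pou5f1 had 17781, 15917 and 17316 reads. By the 2-fold rule described below, 0 of the 7 were called in any comparison. That rule called at most 1.68% of all features in either direction, so 0 of 7 does not test ESC identity. By the weaker reading described below, 4 were higher and 1 lower in the ATRX knockout over wildtype. In the DAXX knockout over wildtype 4 were higher and 2 lower.

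A difference is given as a log2 fold with its 95% counting interval in parentheses. A sequence was called higher or lower when that whole interval lay beyond 2-fold, and a weaker reading, used as description, asks only whether the interval leaves out an equal level. Neither is a test of genotype: with 1 library each there are 0 residual degrees of freedom, and the intervals compare libraries and cover counting error only. Calls were made for sequences with at least 30 reads over the 3 libraries, which 12 members and 13309 of all features (genes and repeats) had.

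ERV3 RNA was a small and concentrated signal. Of the 185 members, 28 had a read in any library, 20 had one in every library and 157 had none. Where a row had 0 reads, its level may have been as high as 0.214 RPM in the ATRX knockout, 0.267 RPM in the DAXX knockout and 0.215 RPM in the wildtype, the level of 3 reads. The members together had 3125 reads in the ATRX knockout, 3197 in the DAXX knockout and 4573 in the wildtype. The MERVL row alone held 46.5% of the 10895 ERV3 reads, and the 12 members with at least 30 reads held 98.7%. The lowest of those 12 had 38 reads and the next member down had 24.

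Reads lay on the young rodent elements. Rows named for Mus musculus (21 rows, 8 with reads) held 5640 reads, and rows named for rodents (Rodentia, 22 rows, 7 with reads) held 3462. The 4 rat rows (Rattus) that had reads, of 6, held 898, and the 51 rows named for placental mammals (Eutheria) held 0. All 35 rows of the older MaLR groups MLT and MST were at 0. Within MT elements, whose letters run roughly from young to old, MTA took 3024 reads (95.4% of the group), MTB 145, MTC 2, and MTD and MTE 0. Within ORR1 elements the A subfamily took 1825 reads (99.8%), B took 2 and D took 1, and C, E, F and G took 0. A read had to match a consensus closely enough to be aligned, so the RNA of old and diverged copies is not measured by these rows.

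MERVL stood at a lower level in both knockout libraries than in the wildtype. Its row is 5485 bases long and is taken here as the internal part of the element, since the LTR has a row of its own. It had 1406 reads in the ATRX knockout, 1398 in the DAXX knockout and 2258 in the wildtype, or 100.5, 124.6 and 161.5 RPM. Its level was 62.2% of wildtype in the ATRX knockout, a log2 fold of -0.68 (-0.78 to -0.59), and 77.1% in the DAXX knockout, at -0.37 (-0.47 to -0.28). The ATRX knockout was also below the DAXX knockout, at -0.31 (-0.42 to -0.20), or 0.51 when scaled by LINE-1 and SINE reads. Scaled by transcript reads, none of these intervals reached 2-fold, and all 3 left out an equal level. Scaled by LINE-1 and SINE reads, MERVL stood at -0.098 (-0.20 to -0.002) in the ATRX knockout over wildtype, close to an equal level. In the DAXX knockout over wildtype that scaling gave -0.60 (-0.70 to -0.51). Among the 6480 features with at least 1000 reads, 1.59% had a lower fold than MERVL in the ATRX knockout and 5.77% in the DAXX knockout.

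The other rows of the MERVL and MT2 family were sparse. MERVL_LTR, the LTR that drives the element, had 14 reads in the ATRX knockout, 21 in the DAXX knockout and 26 in the wildtype. Its log2 fold over wildtype was -0.89 (-1.95 to 0.10) in the ATRX knockout and 0.01 (-0.89 to 0.90) in the DAXX knockout, so these counts do not show a direction. MERVL_2A, a related internal sequence, had 14, 11 and 13 reads in the ATRX knockout, DAXX knockout and wildtype. The LTR rows MT2C (6, 6 and 11 reads), MT2_Rat2 (4, 4 and 7) and MT2B2_LTR (2, 4 and 4) were under the read minimum, and MT2A, MT2B, MT2B1 and MT2_Rat1 had none. LTR rows made up 1.80% of the family's reads in the ATRX knockout (1.18% to 2.62%), 2.42% in the DAXX knockout (1.69% to 3.35%) and 2.07% in the wildtype (1.53% to 2.74%).

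**Figure D1:**
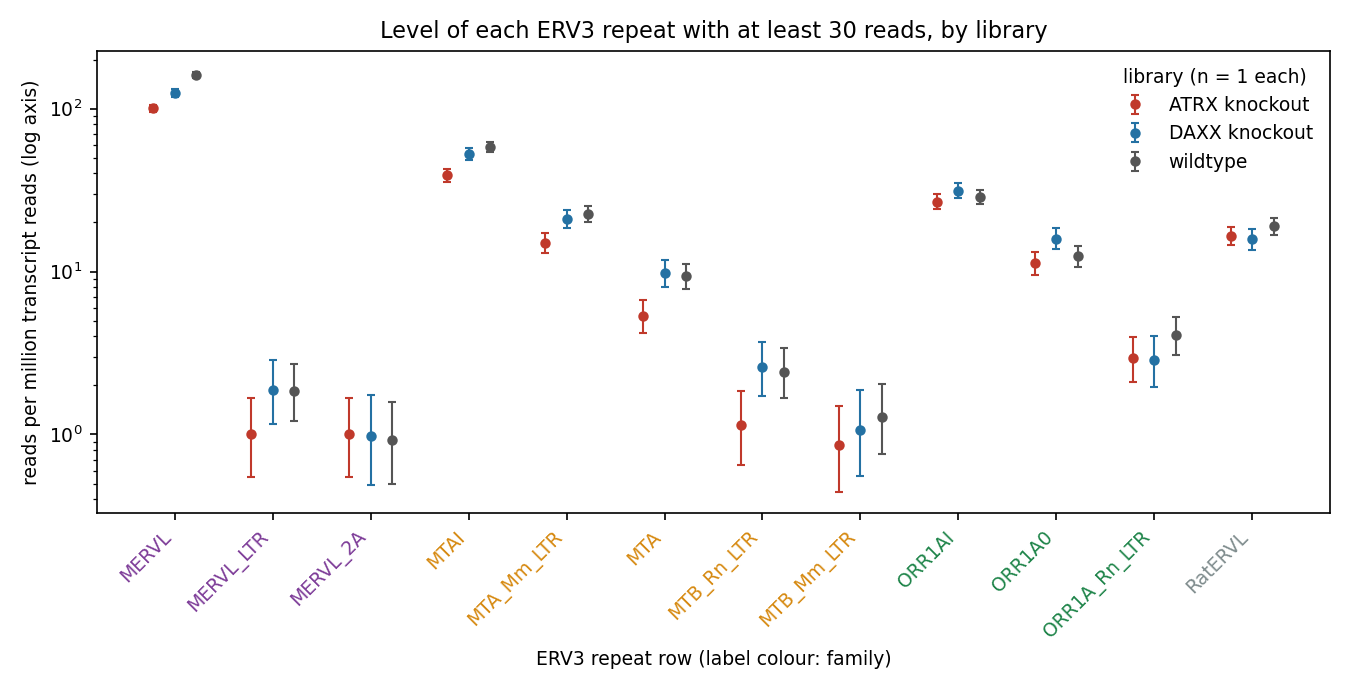
Level of the 12 ERV3 repeats with at least 30 reads, in RPM on a log axis, with 1 point for each library and exact Poisson 95% intervals as error bars. MERVL stands at 100.5 RPM in the ATRX knockout, 124.6 RPM in the DAXX knockout and 161.5 RPM in the wildtype, above every other row, and 9 of the 12 rows are lowest in the ATRX knockout at this scaling.

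MT elements stood lower in the ATRX knockout and near the wildtype level in the DAXX knockout when scaled by transcript reads, and the reverse when scaled by LINE-1 and SINE reads, where their sum was at -0.041 (-0.17 to 0.084) in the ATRX knockout and -0.34 (-0.46 to -0.22) in the DAXX knockout. MTAI, the internal part of MTA, had 544 reads in the ATRX knockout, 591 in the DAXX knockout and 813 in the wildtype. Its log2 fold over wildtype was -0.58 (-0.74 to -0.42) in the ATRX knockout and -0.14 (-0.30 to 0.01) in the DAXX knockout. The mouse LTR of the same group, MTA_Mm_LTR, had 210, 236 and 314 reads in the ATRX knockout, DAXX knockout and wildtype. It gave -0.58 (-0.84 to -0.32) in the ATRX knockout and -0.095 (-0.35 to 0.15) in the DAXX knockout. The internal part and this LTR row thus had like folds in the ATRX knockout, within wide intervals. Summed over all MT rows, internal rows stood at -0.58 (-0.74 to -0.43) there and LTR rows at -0.70 (-0.90 to -0.49).

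The remaining MT rows were LTR variants with fewer reads. MTA, a second consensus of that LTR, had 75 reads in the ATRX knockout, 110 in the DAXX knockout and 131 in the wildtype, and the ATRX knockout gave -0.81 (-1.24 to -0.39). MTB_Rn_LTR, named for the rat, had 16, 29 and 34 reads, and its fold of -1.09 (-2.04 to -0.19) in the ATRX knockout was the lowest of the 12 tested members. MTB_Mm_LTR had 12, 12 and 18 reads. In the DAXX knockout MTA stood at 0.065 (-0.31 to 0.44) and MTB_Rn_LTR at 0.087 (-0.68 to 0.84) over wildtype. Summed over the 17 MT rows, the ATRX knockout had 860 reads, the DAXX knockout 984 and the wildtype 1327. The summed log2 fold over wildtype was -0.63 (-0.75 to -0.50) in the ATRX knockout and -0.11 (-0.23 to 0.006) in the DAXX knockout.

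The ORR1 sum had a higher fold over wildtype than MERVL in both knockouts, and the intervals did not overlap. ORR1AI, the internal part, had 376 reads in the ATRX knockout, 351 in the DAXX knockout and 403 in the wildtype. Its log2 fold over wildtype was -0.10 (-0.31 to 0.11) in the ATRX knockout and 0.12 (-0.09 to 0.33) in the DAXX knockout. ORR1A0, the LTR of a young mouse subgroup, had 157 reads in the ATRX knockout, 179 in the DAXX knockout and 173 in the wildtype. Of the 12 tested members it had the highest fold over wildtype in the DAXX knockout, at 0.37 (0.06 to 0.68), and it stood at -0.14 (-0.46 to 0.18) in the ATRX knockout. ORR1A_Rn_LTR, named for the rat, had 41 reads in the ATRX knockout, 32 in the DAXX knockout and 57 in the wildtype. Its log2 fold over wildtype was -0.48 (-1.09 to 0.13) in the ATRX knockout and -0.52 (-1.19 to 0.13) in the DAXX knockout, there the lowest of the 12 tested members. ORR1A2_LTR had 4, 7 and 9 reads. Summed over the 23 ORR1 rows, the log2 fold over wildtype was -0.16 (-0.32 to 0.002) in the ATRX knockout and 0.15 (-0.01 to 0.31) in the DAXX knockout, and scaling by LINE-1 and SINE reads turned both signs, to 0.42 and -0.078. With that scaling MERVL stood at -0.098 in the ATRX knockout, closer to the wildtype than ORR1, and at -0.60 in the DAXX knockout, farther from it.

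RatERVL, the internal sequence of a rat ERVL element, carried nearly all reads of the 100 remaining ERV3 rows. It had 231 reads in the ATRX knockout, 178 in the DAXX knockout and 265 in the wildtype. The log2 fold over wildtype was -0.20 (-0.46 to 0.06) in the ATRX knockout and -0.26 (-0.54 to 0.02) in the DAXX knockout. The next row, RMER10B, had 1, 1 and 5 reads, and RLTR35_MM and RLTR53_Mm had 0, 2 and 0 each.

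Counted over the 12 tested members, 0 were called higher and 0 lower by the 2-fold rule in any comparison. Over all 13309 features that rule called 0.616% higher and 1.12% lower in the ATRX knockout over wildtype, 0.413% and 1.68% in the DAXX knockout over wildtype, and 0.774% and 0.323% in the ATRX knockout over the DAXX knockout. Beside shares this small, 0 of 12 does not set the members apart from other features. By the weaker reading, 5 of 12 were lower and 0 higher in the ATRX knockout over wildtype, against 27.9% and 18.9% of all features. The 5 were MERVL, MTAI, MTA_Mm_LTR, MTA and MTB_Rn_LTR. In the DAXX knockout over wildtype 1 was lower (MERVL) and 1 higher (ORR1A0), against 26.2% and 14.2%. In the ATRX knockout over the DAXX knockout 7 were lower and 0 higher, against 18.0% and 22.5%. The 100 other tested repeats gave like shares, with 45 lower and 11 higher in the ATRX knockout over wildtype, and 56 lower and 0 higher in the ATRX knockout over the DAXX knockout. In the DAXX knockout over wildtype 10 of them were lower and 31 higher.

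The median of the 12 members was -0.58 in the ATRX knockout over wildtype, with 11 below 0, whereas all features had a median of -0.05. In the DAXX knockout over wildtype the median was -0.04, with 6 members on each side of 0, and that of all features was -0.07. Between the knockouts the members' median was -0.38, ATRX knockout over DAXX knockout, with 9 below 0, that of the 100 other repeats was -0.63, with 94 below 0, and that of all features was 0.03. The 2 comparisons with the wildtype share that library, so their folds are not independent of each other. Scaling by trimmed means (TMM) adds 0.09 to every log2 fold of the DAXX knockout and 0.07 to every one of the ATRX knockout over wildtype. Scaling by LINE-1 and SINE reads adds 0.59 to folds of the ATRX knockout over wildtype, -0.23 to those of the DAXX knockout over wildtype and 0.82 to those of one knockout over the other, which turns the sign of every family sum between the knockouts except that of other ERV3, already above 0.

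**Figure D2:**
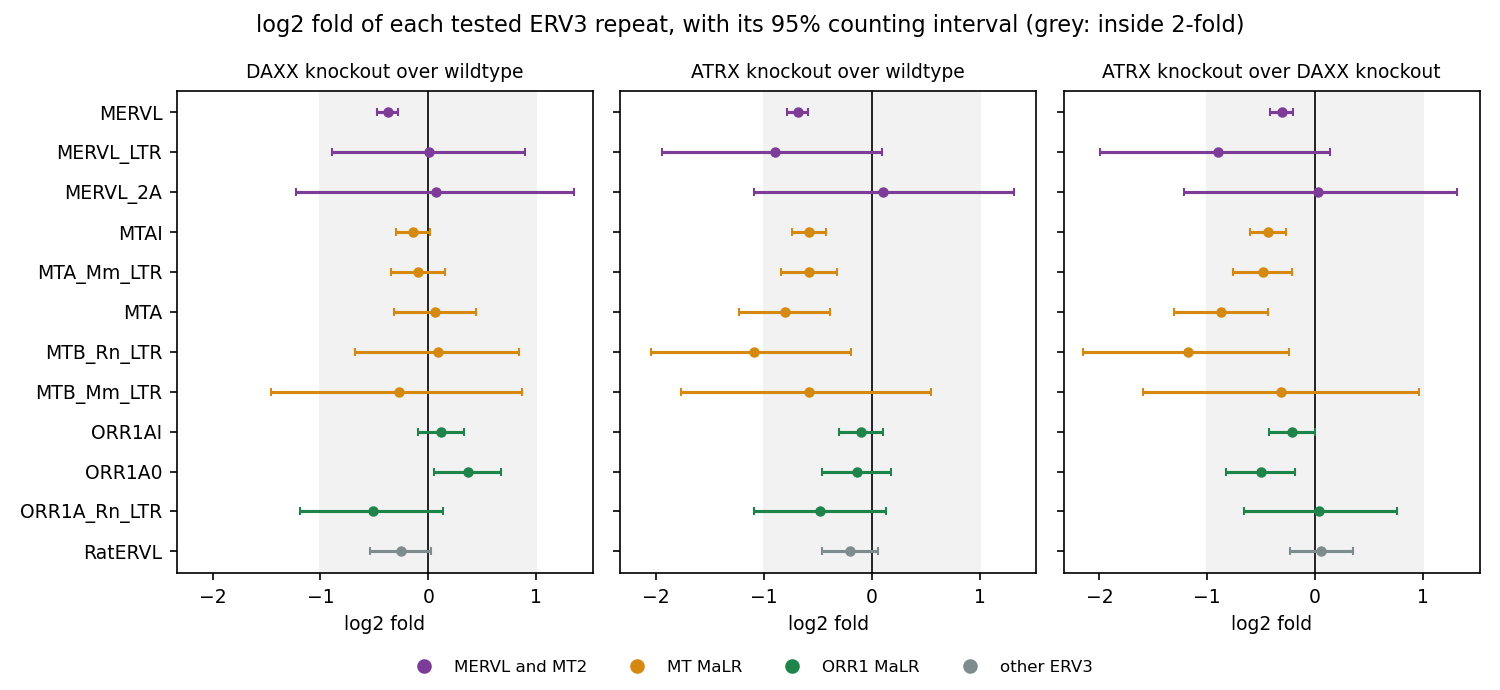
log2 fold of each of the 12 tested ERV3 repeats in 3 comparisons, with exact 95% counting intervals as bars, coloured by family, and the range inside 2-fold in grey. MERVL is at -0.68 in the ATRX knockout and -0.37 in the DAXX knockout over wildtype, the MTA rows lie between -0.81 and -0.58 in the ATRX knockout, and no interval lies wholly outside the grey range.

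The families can also be compared within a library, where no scaling between libraries enters. MERVL and MT2 rows made up 46.3% of ERV3 reads in the ATRX knockout (exact binomial 44.5% to 48.04%), 45.2% in the DAXX knockout (43.4% to 46.9%) and 50.7% in the wildtype (49.3% to 52.2%). ORR1 rows made up 18.8% in the ATRX knockout (17.4% to 20.2%), 18.3% in the DAXX knockout (16.97% to 19.7%) and 14.3% in the wildtype (13.3% to 15.4%). For each ORR1 read there were 2.46 reads of the MERVL and MT2 family in the ATRX knockout, 2.47 in the DAXX knockout and 3.54 in the wildtype. The balance of MERVL to ORR1 was thus alike in the knockout libraries and apart from that of the wildtype. The MERVL row made up 70.5% of MERVL and ORR1 reads in the ATRX knockout (68.5% to 72.5%), 70.5% in the DAXX knockout (68.4% to 72.5%) and 77.5% in the wildtype (75.9% to 78.99%), and the wildtype interval lay above the others. The balance of MERVL to MT differed in another way, with the MERVL row at 62.05% of MERVL and MT reads in the ATRX knockout (60.01% to 64.1%), 58.7% in the DAXX knockout (56.7% to 60.7%) and 62.98% in the wildtype (61.4% to 64.6%). Here the ATRX knockout overlapped the wildtype and the DAXX knockout lay below it. MT rows made up 27.5% in the ATRX knockout (25.96% to 29.1%), 30.8% in the DAXX knockout (29.2% to 32.4%) and 29.02% in the wildtype (27.7% to 30.4%). Those intervals all overlap that of the wildtype.

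**Figure D3:**
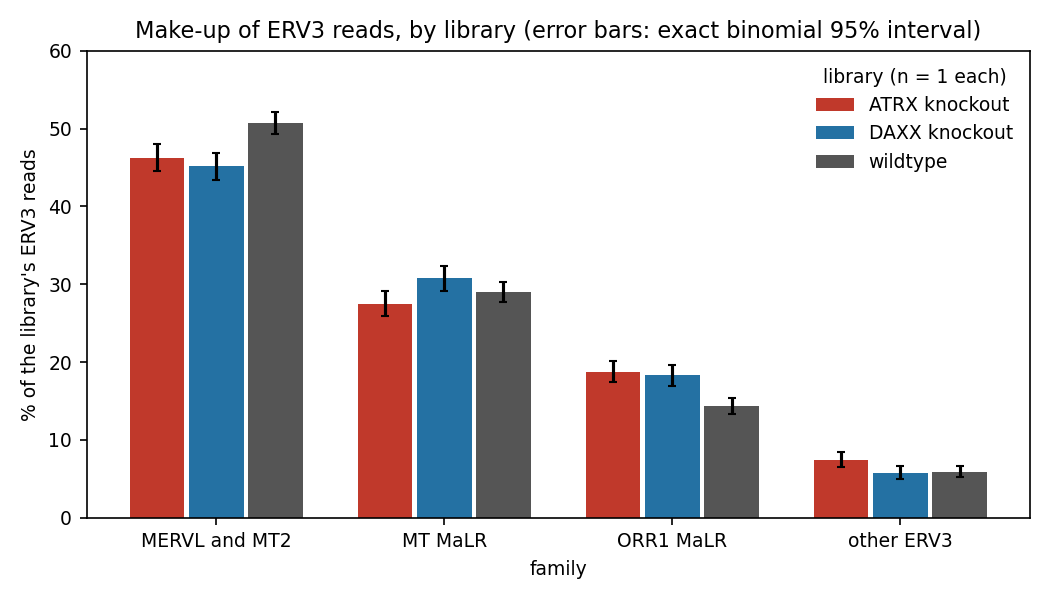
Share of each library's ERV3 reads that fell on each family, in percent, with exact binomial 95% intervals as error bars. MERVL and MT2 rows take 46.3% in the ATRX knockout, 45.2% in the DAXX knockout and 50.7% in the wildtype, and ORR1 rows take 18.8%, 18.3% and 14.3%.

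Per kilobase of consensus, internal and LTR rows stood in a different balance in each group of elements. MERVL had 18.3 RPM per kilobase in the ATRX knockout, 22.7 in the DAXX knockout and 29.4 in the wildtype, which was 9.03, 5.98 and 7.81 times the value of MERVL_LTR. The MERVL_LTR counts of 14 to 26 reads make those ratios imprecise. MTAI had 35.4 RPM per kilobase in the ATRX knockout, 47.96 in the DAXX knockout and 52.96 in the wildtype, 0.934, 0.903 and 0.934 times the value of MTA_Mm_LTR. ORR1AI had 15.07, 17.5 and 16.2 RPM per kilobase, 0.464, 0.380 and 0.452 times that of ORR1A0. A consensus stands for many copies in the genome, so a value per kilobase is a level of the whole group. It also depends on how the group's LTR variants were split into rows.

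Set beside other repeats, the lower ERV3 level of the ATRX knockout was no different in direction from that of LINE-1 and SINE sequences. LINE-1 retrotransposons, which encode their own reverse transcriptase, had 17653 reads in the ATRX knockout, 25082 in the DAXX knockout and 26352 in the wildtype. SINEs, short elements mobilised by LINE-1, had 527, 587 and 919. In the ATRX knockout over wildtype the summed log2 fold was -0.55 (-0.62 to -0.48) for all ERV3, -0.58 (-0.61 to -0.55) for LINE-1 and -0.80 (-0.96 to -0.65) for SINE. Not all classes were lower there. ERV2 apart from intracisternal A particles stood at 0.35 (0.30 to 0.40), and ERV1 at -0.07 (-0.20 to 0.06). The median over the 100 other tested repeats was -0.55, close to the -0.58 of the 12 ERV3 members. Scaled by LINE-1 and SINE reads, the summed fold of all ERV3 in the ATRX knockout was 0.0357, on the other side of 0.

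The DAXX knockout gave another order. Here the summed log2 fold over wildtype was -0.20 (-0.27 to -0.13) for all ERV3, which became -0.11 under TMM and -0.047 (-0.14 to 0.043) without the MERVL row. LINE-1 stood at 0.25 (0.22 to 0.27) and SINE at -0.33 (-0.48 to -0.18), and the median of the other tested repeats was 0.12. Intracisternal A particles (IAP), young retroviruses of class ERV2, were called higher in both, with 1.20 for the ATRX knockout and 1.74 for the DAXX knockout, and ERV1 was called higher in the DAXX knockout, at 1.54. ERV3 took a smaller share of repeat reads in both, with 2.86% in the ATRX knockout (2.76% to 2.96%), 2.85% in the DAXX knockout (2.75% to 2.95%) and 4.62% in the wildtype (4.49% to 4.75%). All repeats summed stood at 0.14 in the ATRX knockout and 0.50 in the DAXX knockout over wildtype. The share thus depends on that total too, and like shares in the knockouts do not mean like ERV3 folds. There is no test of these differences between classes, since each genotype has 1 library.

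**Figure D4:**
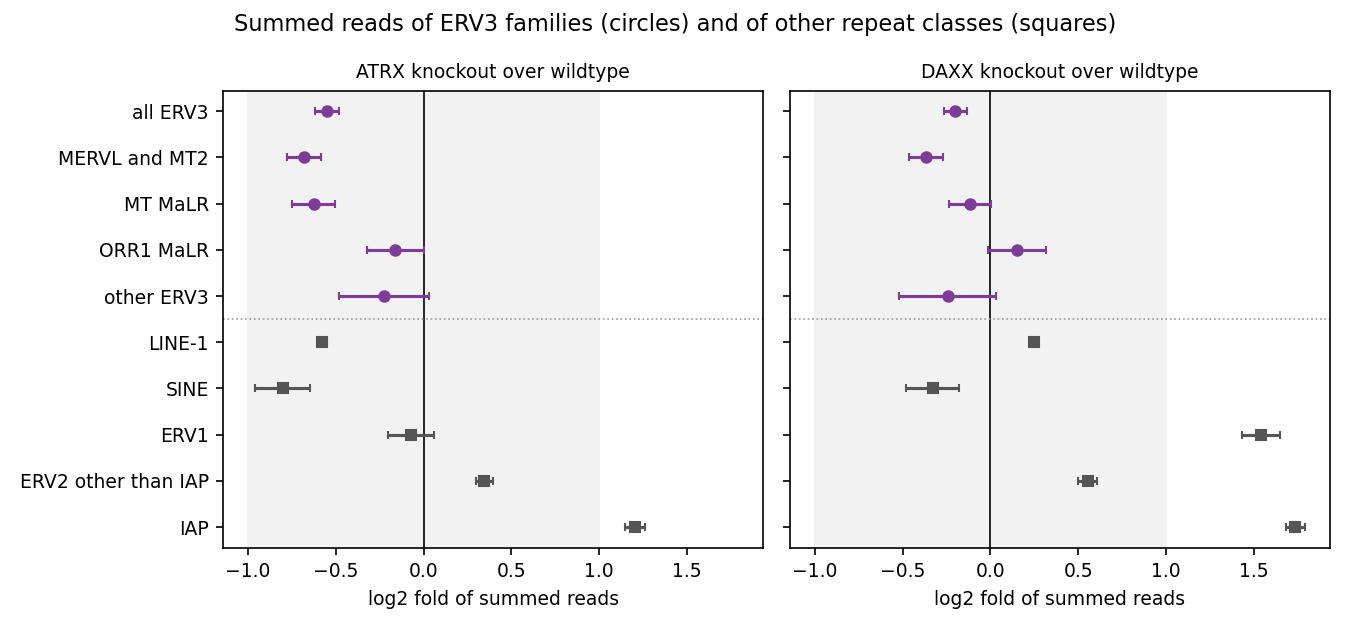
Summed log2 fold over wildtype of ERV3 families (circles) and of other repeat classes (squares) in each knockout, with 95% counting intervals and the range inside 2-fold in grey. In the ATRX knockout ERV3 at -0.55 lies beside LINE-1 at -0.58, and in the DAXX knockout ERV3 at -0.20 lies below LINE-1 at 0.25, while IAP lies at 1.20 and 1.74.

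Genes of the 2-cell stage differed among themselves in which library was lowest. Of 44 listed genes, 34 were matched by symbol and 10 had at least 30 reads. Of these 10, 1 was called lower in the ATRX knockout over wildtype, 0 in the DAXX knockout over wildtype and 1 in the ATRX knockout over the DAXX knockout, with 0 higher in any. Their median log2 fold was -0.28 in the ATRX knockout and -0.72 in the DAXX knockout over wildtype. The Zscan4 genes of chromosome 7, which mark the 2-cell-like state, are near-identical copies that can exchange reads, so the 4 measured ones were summed. They had 173 reads in the ATRX knockout, 83 in the DAXX knockout and 197 in the wildtype. The DAXX knockout gave -0.93 (-1.32 to -0.55) and the ATRX knockout -0.19 (-0.49 to 0.11) over wildtype. Zscan4f alone had 73, 23 and 78 reads.

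Scaled by transcript reads, MERVL was lowest in the ATRX knockout and the Zscan4 sum in the DAXX knockout, whereas scaling by LINE-1 and SINE reads put MERVL lowest in the DAXX knockout too. In neither comparison with the wildtype did the intervals of MERVL and the Zscan4 sum overlap. Scaling shifts both intervals alike, so it cannot change that. Gm4340, on chromosome 10, and Gm5662, Gm4027 and Gm8300, on chromosome 12, were also summed. Their sum followed Zscan4, with 111 reads in the ATRX knockout, 43 in the DAXX knockout and 133 in the wildtype. In the DAXX knockout over wildtype the intervals of Gm4340 and Gm5662 left out an equal level, and those of Gm4027 and Gm8300 did not. AU018091, on chromosome 7, was the listed gene called lower. It had 216 reads in the ATRX knockout, 711 in the DAXX knockout and 1331 in the wildtype, a fold of -2.62 (-2.84 to -2.42) in the ATRX knockout and -0.59 (-0.72 to -0.46) in the DAXX knockout over wildtype. The 4 tested markers of the 2-cell-like state are all among the 10 tested genes of the 2-cell list, and 0 of them were called in any comparison. In bulk RNA, fewer 2-cell-like cells and less RNA in each cannot be told apart. Tdpoz2, Tdpoz3, Tdpoz5, Obox1 and Obox3 were at 0 in every library, and Zfp352, with 0, 1 and 1 reads, was near it.

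**Figure D5:**
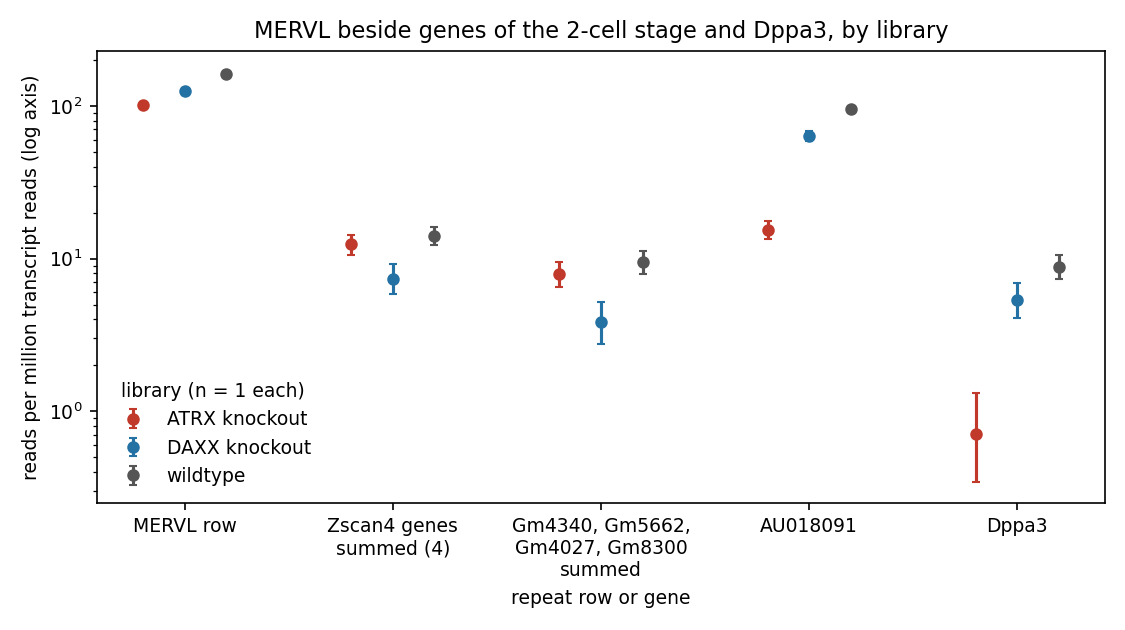
Level of the MERVL row, of summed Zscan4 genes, of 4 summed Gm genes, of AU018091 and of Dppa3 in each library, in RPM on a log axis, with exact Poisson 95% intervals. At this scaling MERVL and AU018091 are lowest in the ATRX knockout, at 100.5 and 15.4 RPM, whereas Zscan4 is lowest in the DAXX knockout, at 7.39 RPM.

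Known regulators of MERVL and MaLR elements were all measured, 43 of 43. None was called higher in any comparison. In the ATRX knockout over wildtype 2 of 43 were called lower, Dppa3 and the targeted gene Atrx itself, against 1.12% of all features. In the DAXX knockout over wildtype 0 were, against 1.68%. Dppa3, a maternal protein that limits DNA methylation upkeep, had 10 reads in the ATRX knockout, 60 in the DAXX knockout and 123 in the wildtype. Its log2 fold over wildtype was -3.62 (-4.72 to -2.69) in the ATRX knockout and -0.72 (-1.19 to -0.26) in the DAXX knockout. Trim28, the corepressor that silences retroviruses with KRAB zinc finger proteins, had 18023, 18986 and 24359 reads. It stood at -0.44 (-0.46 to -0.41) in the ATRX knockout and -0.04 (-0.07 to -0.02) in the DAXX knockout. Ncl, nucleolin, the regulator with most reads, stood at -0.03 and 0.05. The list median was -0.04 in both, close to the -0.05 and -0.07 of all features. By the weaker reading, 22 of 43 were lower and 9 higher in the ATRX knockout over wildtype, against 27.9% and 18.9% of all features. In the DAXX knockout over wildtype 16 were lower and 9 higher, against 26.2% and 14.2%. These shares are not matched for read depth.

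Scaled by transcript reads, the marker sum of each other cell type listed was lower in both knockouts than in the wildtype. Beside the calls below, the 2-fold rule called 1.12% of all features lower in the ATRX knockout over wildtype. In the DAXX knockout over wildtype it called 1.68% lower. Primitive endoderm markers summed to 140.5 RPM in the ATRX knockout, 63.5 RPM in the DAXX knockout and 279 RPM in the wildtype, and of the 7 tested, 3 were called lower in the ATRX knockout and 7 in the DAXX knockout. Trophoblast markers summed to 51.7, 32.3 and 80.5 RPM, with 1 of 4 called lower in each knockout. Fibroblast feeder markers summed to 62.05, 49.3 and 89.3 RPM, with 0 of 5 called lower in the ATRX knockout and 4 in the DAXX knockout. Vim, not among those called, made up most of that sum, at 49.04, 41.96 and 60.01 RPM. Col3a1 and S100a4, with 2 and 1 reads in the wildtype, were at 0 in both knockouts. Sox17 and Hand1 were at 0 in the DAXX knockout. Elf5 was at 0 in the ATRX knockout and the wildtype, and Cdx2 at 0 in the wildtype. Cdx2, with 13 reads in the ATRX knockout and 3 in the DAXX knockout, went against the trophoblast sum and was at least 4.33-fold higher in the ATRX knockout than the level of 3 reads in the wildtype library. Germ cell markers summed to 80.7, 70.2 and 114 RPM, with 1 of 5 (Dazl) called lower in each. Of them, Dazl, Ddx4 and Mael were lowest in the ATRX knockout and Sycp3 and Stra8 in the DAXX knockout. The marker sums were lowest in the DAXX knockout, whereas the ERV3 sum was lowest in the ATRX knockout, or in the DAXX knockout when scaled by LINE-1 and SINE reads. Their part in the ERV3 levels was not tested.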

How the data were processed

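The authors deposited raw read counts, not normalised, in 1 table per library in the layout of SAMtools idxstats (sequence, length, aligned and unaligned reads). Bowtie 1.1.2, SAMtools and GRCm38.p4 are named per the submitters' processing notes. For mismatch limits, placement of reads with several positions, strand use and annotation release, the settings are "not given in the sources used here". In each library 1 table lists 50407 sequences, 1564 of them repeat consensus sequences. Another value column, the deposited sequence length (other), scaled levels per kilobase. Transcripts were summed into 24006 gene symbols, and 145 transcript rows carried clone names. The row of unaligned reads stayed out of all totals.

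Counts were scaled by reads on transcripts. Folds have exact conditional binomial (Clopper-Pearson) 95% intervals, levels exact Poisson ones, all covering counting error only, since PCR copies are not independent molecules. A feature was called when the interval lay wholly beyond 2-fold, among features with at least 30 reads over the 3 libraries, and 1 library per genotype permits no test. Where a row has 0 reads, a fold is given as a bound against a floor of 3 reads. The rule was run on simulated Poisson counts with known folds and no variation between clones or cultures. The intervals assume that same model, so the run checks their computation only. The weaker reading, the sums of Zscan4 genes and of Gm genes and the share of features below MERVL were added after the data were seen. Members and lists were chosen with earlier results of these data known. Families were set by name: MERVL and MT2, MT, ORR1, older MaLR (MLT, MST, THE1), and the rest. Rows were taken as internal where the name says so, MERVL because its LTR has a row of its own, and MERVL_2A and the ERVL rows by assignment. The text names each called member, all MERVL and MT2 rows with reads, and the 4 rows with most reads in each family. From each gene list it names the called and the 2 most abundant genes, shortened for cell type markers to counts. Genes at 0, MTB_Mm_LTR, the keratins, Eomes and Vim were named after their values were seen. Alternatives were TMM (edgeR 4.0.16), median-ratio factors (DESeq2 1.42.0), all aligned reads, LINE-1 and SINE reads, counts thinned to the smallest library, other read minimums, and family sums without their most abundant row. Python 3.11.15, SciPy 1.17.1 and R 4.3.3 were used. Chromosomes come from GENCODE M21 on GRCm38. Consensus sequences of the repeats were not used here.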

Additional observations from a re-analysis of the deposited data

How the results depend on the processing

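No paired analysis was possible because each genotype has 1 library. The counts of called members were 0 in both directions under each of the 7 alternatives run on them. Family sums kept their value within their counting intervals when all aligned reads or thinned counts were used. Scaling by LINE-1 and SINE reads gave, over wildtype in the ATRX knockout, 0.0357 for all ERV3, -0.096 for MERVL and MT2, -0.041 for MT, 0.42 for ORR1 and 0.36 for other ERV3. In the DAXX knockout it gave -0.43 for all ERV3, -0.60 for MERVL and MT2, -0.34 for MT and -0.078 for ORR1. For the ATRX knockout over the DAXX knockout it gave 0.46 for all ERV3, 0.50 for MERVL and MT2, 0.30 for MT, 0.50 for ORR1 and 0.83 for other ERV3, the opposite sign to the main values except for other ERV3. By construction it gives ERV3 relative to LINE-1 and SINE. TMM gave -0.48 for all ERV3 in the ATRX knockout and -0.11 in the DAXX knockout over wildtype, and median-ratio factors -0.11 for the DAXX knockout over wildtype. Without the MERVL row, all ERV3 stood at -0.43 in the ATRX knockout and -0.047 in the DAXX knockout, and the MERVL and MT2 family, then 147 reads in all, at -0.0902 in the DAXX knockout and -0.52 between the knockouts. Without RatERVL the other ERV3 rows, then 13 reads in all, gave -2.59, 0.32 and -2.90 in the ATRX knockout over wildtype, the DAXX knockout over wildtype and between the knockouts. The median of tested members in place of the sum gave, in the DAXX knockout, -0.043 for all ERV3 and 0.0088 for MERVL and MT2. Depth limits the 16 members with 1 to 24 reads, which were left out of the counts of calls.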

Other observations

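Some rows under the read minimum had uneven counts, which were picked out after their values were seen. MTB, an LTR consensus beside the 2 MTB rows that were tested, had 3 reads in the ATRX knockout, 6 in the DAXX knockout and 15 in the wildtype. Its log2 fold over wildtype was -2.32 (-4.75 to -0.50) in the ATRX knockout. The 3 MTB rows together had 31, 47 and 67 reads in the same order of libraries, and the 3 MTA rows 829, 937 and 1258. ORR1A, a rodent LTR consensus, had 2 and 3 reads in the ATRX and DAXX knockouts and 0 in the wildtype, at or under the floor of 3 reads. Rows named for rats carried 898 reads in these mouse cells, on RatERVL, ORR1A_Rn_LTR, MTB_Rn_LTR and MT2_Rat2.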
